A study of Mus musculus with 6 samples.

Results

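The Rab GTPases of vesicle traffic were examined in mouse Peyer's patch phagocytes with and without C5a. Members were all genes whose symbol is Rab followed by digits and at most 1 letter, found through the RefSeq transcript accession that the array's scanner files give for each probe. This rule took 57 genes with 89 probes, out of 22907 named genes on the array. It uses no measured value. Of the 57 genes, 20 had a probe that stood well above background in 3 or more arrays and could be tested.

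Rab proteins are small GTPases that mark the membranes between which vesicles move. In the GTP-bound form, set by exchange factors, a Rab sits on its membrane through a prenyl anchor and recruits tethers, motors and other effectors. GTPase-activating proteins of the TBC family end that state, and the GDP dissociation inhibitor GDI carries the inactive Rab back through the cytosol. In phagocytes Rab5 proteins act on early endosomes and young phagosomes, Rab7 on late endosomes and lysosomes, and Rab11 and Rab35 on return to the cell surface. Rab1, Rab2 and Rab6 proteins serve the path between endoplasmic reticulum and Golgi, and the Rab3 and Rab27 families serve regulated secretion.

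The cells were C5aR+ LysoDCs, lysozyme-expressing phagocytes of the Peyer's patch that carry the receptor for the complement fragment C5a. They were enriched for CD11c with beads, then sorted, and CSF-1 and CSF-2 were in the culture medium, per the labels' protocols. Of the 6 samples, 3 received no C5a (0 nM) and 3 received 100 nM recombinant C5a for 3 h, and the RNA of each was put on 1 Agilent 1-colour array. Mouse strain, genotype, age, the culture time of the untreated samples and any pooling of animals are not given in the sources used here, nor is whether replicates were separate preparations, so p-values measure only how far these samples scatter, some of which may be technical.

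The arrays were dim and differed in brightness. Between 2728 and 6959 of 56605 probes were well above background per array, and the 75th percentile of signal, taken over the probes that every array detected, lay between 109 and 459. Of 20 listed phagocyte markers, 17 were well above background on at least 1 array, among them Lyz1, Lyz2, Itgax and Csf1r on all 6, while Cx3cr1 and Mertk were on none and C5ar1 was on 3. Of 9 markers of intestinal epithelium 1 was above background (Gp2, on 1 array), and of the 7 neutrophil and mast cell markers with a probe none was. For T and innate lymphoid cells it was 2 of 9 with a probe, for B cells 3 of 8, for plasma cells 5 of 5, for plasmacytoid dendritic cells 5 of 6, for other dendritic cells 2 of 7, and for stroma and endothelium 1 of 9. The part of other cells in the Rab signals was not tested. Levels below are log2 signals relative to the array's 75th percentile over probes detected on all 6 arrays, differences are C5a minus untreated on the same log2 scale, and n = 3 per group.

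Promoter sequence from RefSeq (build GRCm38.p6) is shown for 3 members picked by their values. Rab32 had the smallest unadjusted p of the family, and Rab5a and Rab35 were the members whose groups did not overlap. Each run holds the 250 bases before the gene's start, 5′ to 3′ on the gene's own strand. Capitals mark GAGGAAGT, a sequence bound by the myeloid factor PU.1, in Rab32, and GGGCGG or its reverse complement, the GC box of Sp1 family factors, in Rab5a and Rab35. The windows are chr10:10558208-10558457 (minus strand), chr17:53478984-53479233 (plus strand) and chr5:115631737-115631986 (plus strand).
Rab32: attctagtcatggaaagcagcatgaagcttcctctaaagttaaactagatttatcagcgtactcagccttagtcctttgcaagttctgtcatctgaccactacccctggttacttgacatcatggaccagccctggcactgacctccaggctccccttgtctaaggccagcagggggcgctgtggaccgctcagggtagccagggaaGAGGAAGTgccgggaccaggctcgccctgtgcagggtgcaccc
Rab5a: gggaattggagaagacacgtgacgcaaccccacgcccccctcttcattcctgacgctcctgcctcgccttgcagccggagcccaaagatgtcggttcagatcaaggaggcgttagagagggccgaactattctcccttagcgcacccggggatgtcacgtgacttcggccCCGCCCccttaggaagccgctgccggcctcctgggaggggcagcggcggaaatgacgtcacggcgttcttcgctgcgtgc
Rab35: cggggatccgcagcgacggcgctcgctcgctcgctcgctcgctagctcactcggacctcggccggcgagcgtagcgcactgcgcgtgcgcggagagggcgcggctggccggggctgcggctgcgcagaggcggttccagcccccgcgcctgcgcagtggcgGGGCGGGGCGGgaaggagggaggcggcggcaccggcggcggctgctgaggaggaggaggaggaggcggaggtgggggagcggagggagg

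The 3 promoters differ in base content. Rab32 holds 5 CpG dinucleotides in its 250 bases, Rab5a 23 and Rab35 39. A promoter was listed for 18 of the 20 tested Rab genes (22 promoters) and for 30 of the other 37 (38 promoters). The median number of CpG dinucleotides was 20.5 in the former and 12 in the latter, against 16 in promoters of all named genes tested and 6 in all 32851 promoters of the table. GGGCGG, searched on both strands, was in 16 of the 22 promoters (72.7%) and in 24 of the 38 (63.2%), where 58.1% of promoters of tested genes and 32.7% of all promoters held it. GAGGAAGT, also searched on both strands, was in 1 of the 22 promoters and in 1 of the 38, where 2.90% of promoters of tested genes and 2.44% of all promoters held it. These are counts of letters in a window and show no binding.

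Some Rab genes of the endocytic, recycling and Golgi routes were detected, and none of the 8 grouped here under regulated secretion was. Of 57 Rab genes, 27 had a probe well above background on at least 1 array, 20 on at least 3 and 7 on all 6. Those 7 were Rab2a, Rab7, Rab8b, Rab14, Rab32, Rab35 and Rab43. The share tested was 35.1% of Rab genes, where 14.3% of all named genes on the array were tested. By role, 6 of 15 genes of endoplasmic reticulum and Golgi traffic were tested, 5 of 9 of early endosomes and 6 of 13 of recycling and surface delivery. For late endosomes and lysosome-related organelles it was 3 of 7, for regulated secretion 0 of 8 and for other roles 0 of 5. In bulk samples such as these, fewer cells of a type and less RNA per cell cannot be told apart.

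**Figure D1:**
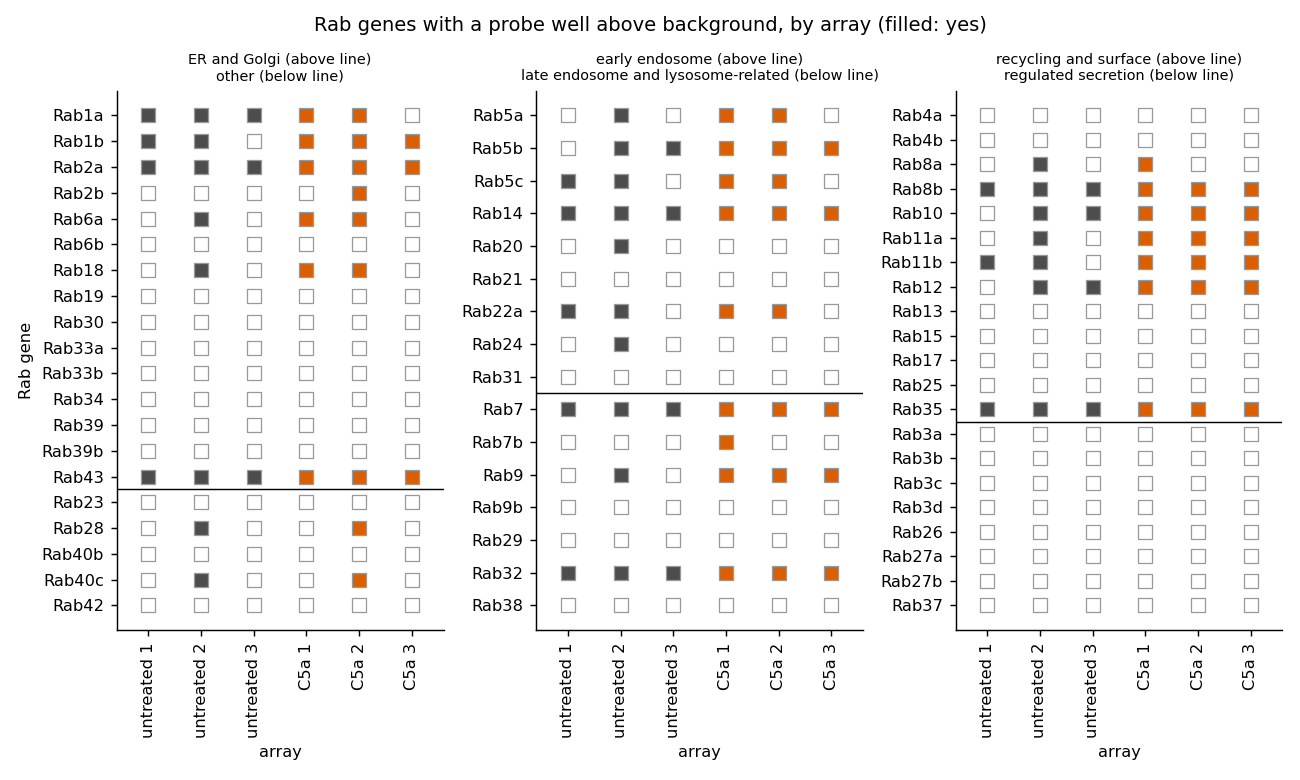
Detection of the 57 Rab genes (rows) on the 6 arrays (columns), in panels by role. A filled square, grey for untreated and orange for C5a, means that at least 1 probe of the gene was well above background, and 25 genes were filled on untreated 2 against 11 on untreated 3.

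The regulated secretion genes with no probe above background were Rab3a, Rab3b, Rab3c and Rab3d, which act in exocytosis of granules and synaptic vesicles, Rab26, Rab27a, Rab27b and Rab37. Rab17 and Rab25, known from epithelial cells, and Rab38, the close relative of Rab32 in melanosome and lysosome-related organelle traffic, were also above background on no array. Rab4a and Rab4b, of fast endosomal recycling, and Rab21 and Rab31, of endosomes, were not detected either. On arrays this dim, a gene not well above background may still be expressed below that level. Another 7 genes were above background on 1 or 2 arrays and were not tested. Rab20, a phagosome Rab, and Rab24 were so on untreated 2 alone, Rab2b on C5a 2 alone and Rab7b, a late endosomal relative of Rab7, on C5a 1 alone. Rab28 and Rab40c were above background on untreated 2 and C5a 2, and Rab8a on untreated 2 and C5a 1.

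Detection followed the brightness of the array. The number of Rab genes above background was 12, 25 and 11 on untreated 1 to 3 and 22, 23 and 14 on C5a 1 to 3. Over all probes the numbers were 3574, 6959 and 2728, and 4864, 6651 and 3668. The groups overlapped in both counts, and untreated 3, untreated 1 and C5a 3 were the dimmest in both. The floor differed too: a Rab25 probe above background on no array was at -7.70 on untreated 2 and -5.50 on untreated 3. A value not above background therefore gives no sure level. The part of brightness in the differences below was not tested.

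C5a changed no Rab gene past the test's threshold. With limma and Benjamini-Hochberg adjustment over all 4488 genes tested, 0 of 20 Rab genes had an adjusted p under 0.05 (lowest adjusted p = 0.999), where 0% of all genes did. Of these 4488, 3275 were named genes. The rest were probes with no gene name, each counted as a gene in this and all other shares of all genes. With no filter on dim probes, 0 of all 57 Rab genes passed, where 0.101% of all genes did. Limma there gave the 20 tested Rab genes 1 shared SE of 0.77, so that setting does not test each gene by its own spread. At an unadjusted p under 0.05 in limma there were again 0 Rab genes, where 2.36% of all genes tested passed. Differences ran from -0.76 for Rab5c to 0.84 for Rab5b, with 12 above 0 and 8 below. Their median was 0.20, where that of all genes tested was 0.04. Both depend on the processing. With normexp background correction 4 of the 20 differences were above 0 and the median was -0.15 (all genes -0.12). That correction adds an offset of 50 to each spot, which compresses the differences of dim probes. The arrays' 75th percentiles lay between 109 and 459. Its values here and below are thus no like-for-like check of scaling, and the part of brightness in them was not tested. With the percentile taken over all probes 18 were above 0 and the median was 0.56 (all genes 0.40). SEs lay between 0.24 and 0.72, with a median of 0.41, and the 95% intervals given below show the size of change that each gene's values still allow.

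**Figure D2:**
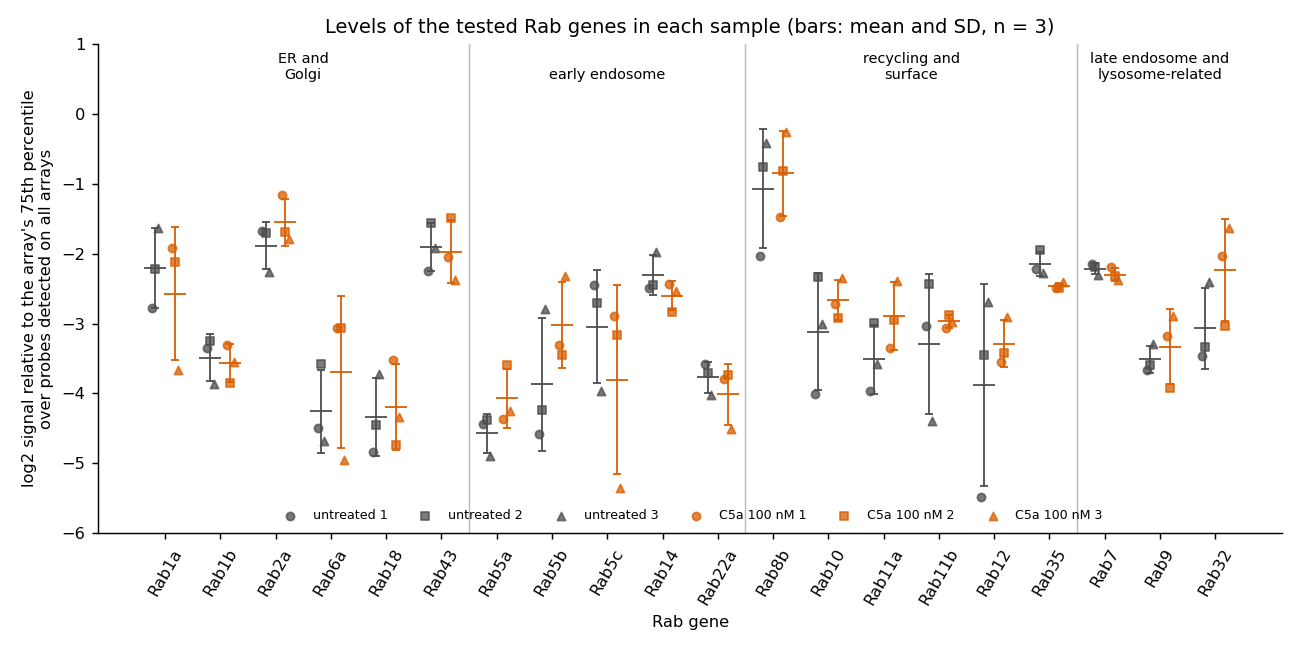
Log2 level of each of the 20 tested Rab genes in the 6 samples, untreated in grey and C5a 100 nM in orange, with marker shape for the replicate number and bars for the mean and SD of 3 samples. For 18 of the 20 genes the groups overlap, and Rab7 has the narrowest spread.

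By the probe used, the groups did not overlap for 2 Rab genes, Rab5a and Rab35, where 5.7% of all genes tested were so (3.39% with C5a above and 2.32% with C5a below). Rab5a, which drives early endosome fusion, was at -4.44, -4.38 and -4.89 in untreated 1 to 3 and at -4.37, -3.59 and -4.25 in C5a 1 to 3. All C5a values were higher, but the gap between C5a 1 and the highest untreated value was small, and the probe stood above background in 1 untreated sample and 2 C5a samples. Its difference was 0.50 (SE 0.32, 95% interval -0.25 to 1.26, limma unadjusted p = 0.161, adjusted p = 0.999). It was -0.033 with normexp and 0.26 without C5a 2. Rab35, which acts in endosomal recycling to the plasma membrane, was at -2.22, -1.95 and -2.28 in untreated samples and at -2.49, -2.49 and -2.41 with C5a. All C5a values were lower, and they lay within a narrow range. The difference of Rab35 was -0.31 (SE 0.25, 95% interval -0.90 to 0.27, limma unadjusted p = 0.247, adjusted p = 0.999), and 0.049 with the percentile over all probes. Each gene has 1 probe on the array.

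The other early endosome Rabs differed in sign and none passed. Rab5b, which shares its early endosomal role with Rab5a and Rab5c, was at -4.59, -4.24 and -2.79 in untreated samples and at -3.31, -3.45 and -2.32 with C5a. The groups overlapped because untreated 3 was high. The difference was 0.84 (SE 0.54, 95% interval -0.44 to 2.13, limma unadjusted p = 0.164). It was 0.072 with normexp, 0.49 without untreated 1 or without C5a 3, and 1.39 without untreated 3. Rab5c was at -2.46, -2.71 and -3.96 in untreated samples and at -2.89, -3.16 and -5.36 with C5a. Samples numbered 3 were the lowest of their groups, and the probe was above background on neither of them. The difference was -0.76 (SE 0.72, 95% interval -2.46 to 0.94). Without C5a 3 it lost its sign, at 0.02, and with normexp it was -0.36. Across these 3 genes of 1 subfamily, Rab5a and Rab5b thus had positive differences (that of Rab5a negative with normexp) and Rab5c a negative one, each with an interval that held 0. The difference between the paralogues was not tested.

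Rab14, which acts between the trans-Golgi network and endosomes, was at -2.49, -2.45 and -1.98 in untreated samples and at -2.43, -2.83 and -2.54 with C5a, a difference of -0.29 (SE 0.28). The groups overlapped through C5a 1. A second Rab14 probe, above background on 3 arrays, had the opposite sign, with a difference of 0.32. Rab22a, a Rab5 relative of early and recycling endosomes, was at -3.58, -3.71 and -4.03 in untreated samples and at -3.80, -3.73 and -4.52 with C5a, a difference of -0.24 (SE 0.32). Its C5a values lay in or below the untreated range, and C5a 3 was the lowest.

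Among recycling and surface Rabs, 5 of 6 differences were above 0 (1 of 6 with normexp) and none passed, with a median of 0.39 (-0.15 with normexp). The median of all genes tested was 0.04 (-0.12 with normexp). Rab11a, the main Rab of the recycling endosome, was at -3.97, -2.99 and -3.58 in untreated samples and at -3.35, -2.94 and -2.39 with C5a. The groups overlapped, since C5a 1 lay below untreated 2, and the probe was above background on 1 untreated and 3 C5a arrays. The difference was 0.62 (SE 0.38, 95% interval -0.28 to 1.51, limma unadjusted p = 0.148), with -0.032 under normexp and 0.36 without C5a 3. Its paralogue Rab11b was at -3.04, -2.44 and -4.40 in untreated samples and at -3.06, -2.87 and -2.98 with C5a, a difference of 0.32 (SE 0.49). The C5a values of Rab11b were close together while untreated 3 was low and not above background. The difference was -0.23 without untreated 3 and also with normexp. The other Rab11b probes, 2 in number, were above background on no array.

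Rab10, which delivers vesicles to the plasma membrane, was at -4.00, -2.34 and -3.00 in untreated samples and at -2.71, -2.92 and -2.35 with C5a, a difference of 0.46 (SE 0.45). Rab12, linked to degradation of recycling receptors, was at -5.49, -3.44 and -2.70 in untreated samples and at -3.54, -3.42 and -2.90 with C5a, a difference of 0.59 (SE 0.68). In both genes untreated 1 was the low value and was not above background, and all 3 C5a values lay within the untreated range. Without untreated 1 the difference of Rab12 was -0.22 and that of Rab10 was 0.01. With normexp they were -0.13 and -0.16. Rab8b, a Rab of exocytic and surface traffic, was at -2.03, -0.77 and -0.41 in untreated samples and at -1.48, -0.82 and -0.26 with C5a, a difference of 0.22 (SE 0.51). Samples of the same number lay close to each other, with differences of 0.55, -0.05 and 0.15 for numbers 1 to 3. The second Rab8b probe, above background on 3 arrays, gave the same order of numbers, at -3.73, -3.48 and -2.89 in untreated samples and at -4.17, -3.30 and -2.75 with C5a.

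Of the late endosome and lysosome-related Rabs, Rab7 varied least and Rab32 had one of the larger differences. Rab7, which directs fusion of late endosomes and phagosomes with lysosomes, was at -2.15, -2.19 and -2.31 in untreated samples and at -2.19, -2.33 and -2.38 with C5a. All 6 values lay within 0.23 of each other, and its within-group SD of 0.09 was at the 0.557 percentile of the 4488 genes tested. The difference was -0.09 (SE 0.24, 95% interval -0.65 to 0.48, a fold of 0.635 to 1.40), where limma's SE is drawn towards the spread of other genes. A second Rab7 probe was also above background on all arrays, at -2.55, -2.46 and -2.59 in untreated samples and at -2.59, -2.65 and -2.68 with C5a, a difference of -0.11. Both probes had a narrow spread. The groups of the second did not overlap, with a highest C5a value of -2.594 against a lowest untreated value of -2.589.

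Rab32, a Rab of lysosome-related organelles that also acts on pathogen-containing vacuoles in phagocytes, was at -3.47, -3.33 and -2.40 in untreated samples and at -2.03, -3.04 and -1.63 with C5a. The groups overlapped, as C5a 2 lay below untreated 3. The difference was 0.83 (SE 0.47, 95% interval -0.26 to 1.93, limma unadjusted p = 0.116, adjusted p = 0.999), and the probe was above background on all 6 arrays. It was 0.064 with normexp, 0.53 without C5a 3 and 1.24 without C5a 2. Rab9, which serves traffic from late endosomes to the Golgi, was at -3.66, -3.59 and -3.29 in untreated samples and at -3.17, -3.93 and -2.90 with C5a, a difference of 0.18 (SE 0.34) that was -0.12 with normexp. Rab9 was above background on 1 untreated and 3 C5a arrays. C5a 1 and C5a 3 were above all untreated samples and C5a 2 was below them.

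**Figure D3:**
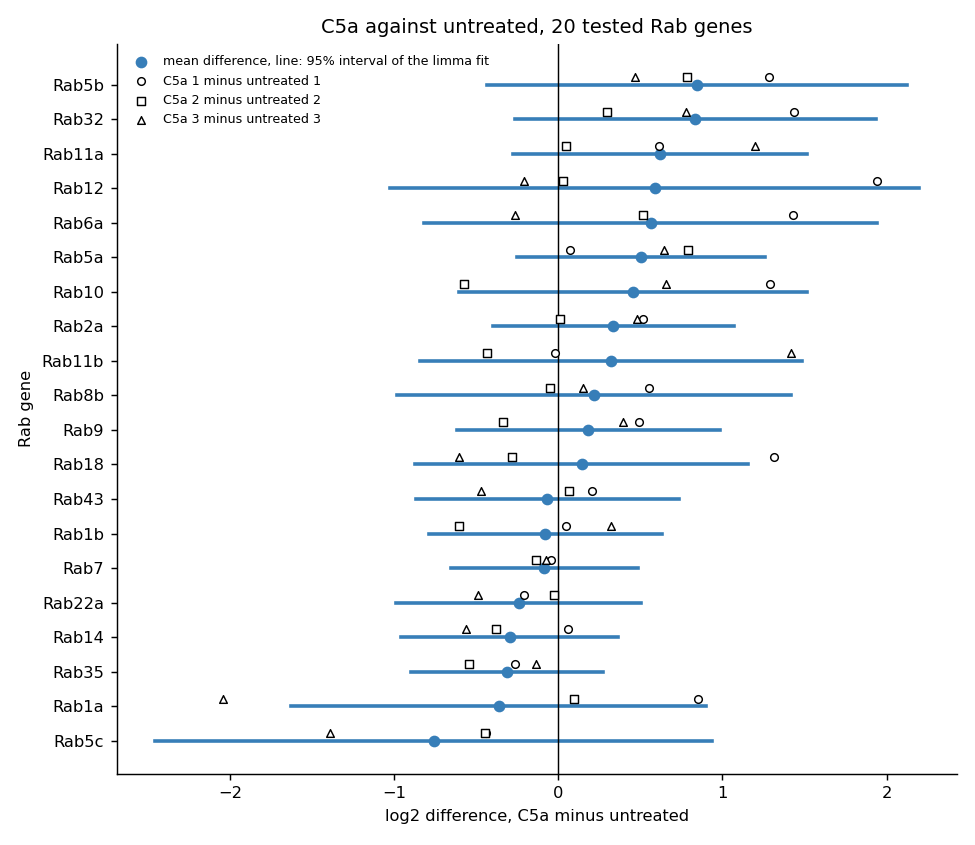
Log2 difference, C5a minus untreated, of each tested Rab gene with its 95% interval from limma (blue), and the differences within each replicate number (open symbols). Every interval holds 0, and the means run from -0.76 for Rab5c to 0.84 for Rab5b.

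Rabs of the endoplasmic reticulum and Golgi had 3 differences on each side of 0 under the scaling used, 1 above and 5 below with normexp, and 5 above and 1 below with the percentile over all probes. The median of all genes tested was 0.04, -0.12 and 0.40 in these settings in turn. Rab2a, of transport between both compartments, was at -1.68, -1.71 and -2.27 in untreated samples and at -1.16, -1.70 and -1.79 with C5a, a difference of 0.33 (SE 0.31). Its other probe, also above background on all 6 arrays, was at -1.52, -1.65 and -2.10 in untreated samples and at -1.57, -2.09 and -2.02 with C5a, a difference of -0.13. The 2 probes of Rab2a therefore had opposite signs, both within the spread between samples. Rab1a, needed for transport from the endoplasmic reticulum, was at -2.78, -2.22 and -1.63 in untreated samples and at -1.92, -2.12 and -3.67 with C5a, a difference of -0.36 (SE 0.54). It rested on C5a 3, where the probe was not above background, and was 0.19 without that sample. Its paralogue Rab1b was at -3.35, -3.24 and -3.87 in untreated samples and at -3.30, -3.85 and -3.55 with C5a, a difference of -0.08 (SE 0.30).

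Rab6a, of Golgi exit and retrograde transport, was at -4.50, -3.58 and -4.69 in untreated samples and at -3.07, -3.06 and -4.95 with C5a, a difference of 0.56 (SE 0.59). C5a 1 and C5a 2 were above all untreated samples and C5a 3 was below them. The probe was not above background on untreated 1, untreated 3 and C5a 3. The difference was 1.19 without C5a 3, 0.25 without C5a 1, 0.24 without C5a 2 and -0.17 with normexp. Rab43, another Golgi Rab, was at -2.25, -1.56 and -1.91 in untreated samples and at -2.05, -1.49 and -2.38 with C5a, a difference of -0.07 (SE 0.34). Rab18, found on the endoplasmic reticulum and lipid droplets, was at -4.84, -4.45 and -3.73 in untreated samples and at -3.52, -4.73 and -4.33 with C5a, a difference of 0.14 (SE 0.43) that was -0.12 with normexp. Values of both groups were intermixed for Rab43 and Rab18.

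**Figure D4:**
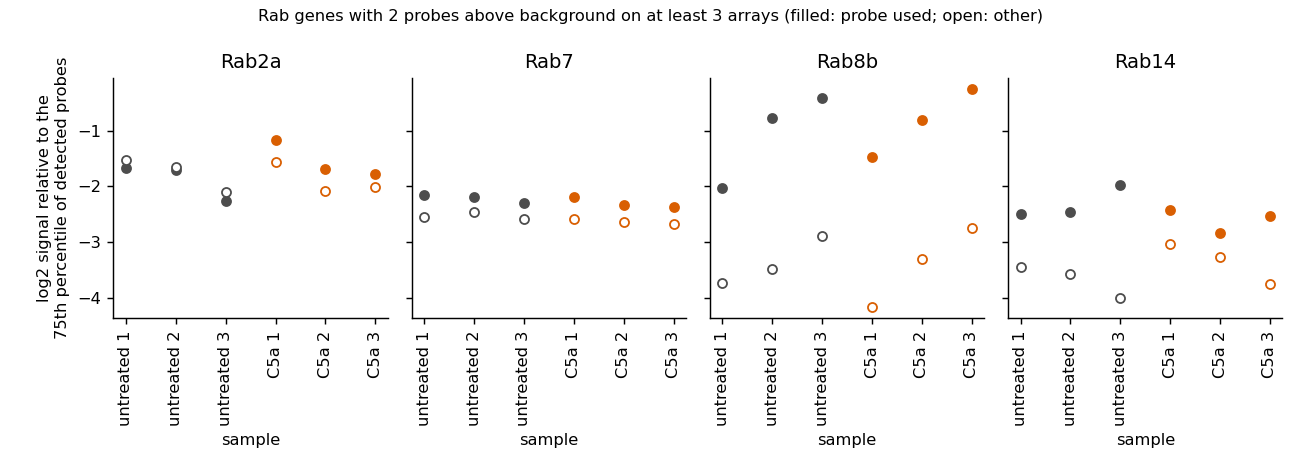
Log2 level in each sample for the 4 Rab genes with a pair of probes above background on at least 3 arrays, with the probe used filled and the other open, untreated in grey and C5a in orange. Both Rab7 probes are nearly flat, both Rab8b probes are lowest in the samples numbered 1, and the probes of Rab2a and Rab14 differ by opposite signs.

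Probes of 1 gene did not always report alike. Of the 20 tested genes, 11 had more than 1 probe, and in 4 of these a second probe was above background on at least 3 arrays. Its sign was that of the probe used for Rab7 and the opposite for Rab2a, Rab8b (-0.04) and Rab14. Rab1b, Rab5b, Rab9, Rab12 and Rab43 each had a second probe above background on no array, and Rab1a one that was on 1 array. The positions of the probes in the transcripts were not analysed here. The annotation table lists 5 Rab pseudogenes, among them copies of Rab5a, Rab7 and Rab11b, and signal from such copies cannot be told apart from that of the gene.

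Samples that shared a replicate number deviated together, and within numbers some Rab differences had 1 sign. The labels do not say that samples of equal number are paired, and the pairing was taken up from these same values. Arrays numbered 2 were the brightest of their groups and those numbered 3 the dimmest, and the part of brightness in the shared deviations was not tested. With C5a set against the untreated sample of the same number, 5 Rab genes were higher in 3 of 3 numbers (Rab2a, Rab5a, Rab5b, Rab11a and Rab32), where 14.4% of all genes tested were. Another 4 were lower in 3 of 3 (Rab5c, Rab7, Rab22a and Rab35), where 10.8% of all genes were, and 11 were mixed. For Rab5b the differences within numbers 1 to 3 were 1.28, 0.79 and 0.47, and for Rab32 they were 1.43, 0.29 and 0.78. With the replicate number as a block in limma, 3 of 20 Rab genes had an unadjusted p under 0.05, where 4.26% of all genes did and 0 of either had an adjusted p under 0.05. Those 3 were Rab5b (SE 0.26, unadjusted p = 0.0231), Rab32 (SE 0.30, unadjusted p = 0.0395) and Rab5c (SE 0.29, unadjusted p = 0.0495), with an adjusted p = 0.927 for each in limma. Since the pairing was picked from the tested values, these SEs and p-values are no independent support.

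All arrays lay on 1 slide, the 3 untreated ones and C5a 1 in its first row and C5a 2 and C5a 3 in its second. Within the first row, where C5a 1 alone stands for its group, the differences of the 20 Rab genes ran from -0.41 to 1.18, with 15 above 0. Rab32 was at 1.03 there, Rab5b at 0.56, Rab5a at 0.20 and Rab35 at -0.34, in the direction of the full comparison, while Rab5c was at 0.15, the opposite. These samples are part of the full comparison, so a shared sign is no check on the slide row. For Rab5a and Rab35, whose groups did not overlap, that sign was fixed in advance. The second row held C5a samples only and gives no value.

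Genes listed for the Rab cycle gave no call either. The lists are wide, and the first also holds genes of prenylation in general, such as Fnta. Of 17 genes of the membrane cycle (prenylation, escort, GDI), 6 were tested, 3 with a positive and 3 with a negative difference, and 0 of 6 passed limma with Benjamini-Hochberg adjustment (median -0.08), and with normexp 1 of the 6 was above 0. Yipf5, a Golgi membrane protein of the family that binds Rabs, differed by -0.94 (SE 0.42), and its relative Yipf4 by 0.62 (SE 0.31), with groups that did not overlap. With normexp Yipf5 was at -0.45 and Yipf4 at -0.18. Of 54 genes listed with the exchange factors 13 were tested, 9 with a positive and 4 with a negative difference (median 0.09), and 0 passed. With normexp 1 was above and 12 below 0 (median -0.13, all genes -0.12). With the percentile over all probes 12 were above and 1 below (median 0.45, all genes 0.40). Ric1 and Rgp1 encode the 2 parts of an exchange factor for Rab6 proteins. Ric1 was at -5.39, -4.20 and -5.48 in untreated samples and at -3.98, -4.01 and -3.36 with C5a, a difference of 1.24 (SE 0.42, limma unadjusted p = 0.0207, adjusted p = 0.999). All C5a values of Ric1 were higher, and its probe was above background on 1 untreated and 3 C5a arrays. With normexp background correction its difference was -0.08. Rgp1 differed by 0.59 (SE 0.33), with overlapping groups, and by -0.067 with normexp.

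Of 39 TBC domain GAP genes 4 were tested, 3 with a positive and 1 with a negative difference (median 0.19), among them Tbc1d22a at 0.80 (SE 0.41) and Tbc1d23, a golgin-binding member, at 0.28 (SE 0.29). With normexp 1 of the 4 was above 0, and Tbc1d22a was at -0.016 and Tbc1d23 at -0.091. Of 91 effector and tether genes 15 were tested, 8 with a positive and 7 with a negative difference (median 0.07). With normexp 1 was above and 14 below 0 (median -0.15, all genes -0.12). With the percentile over all probes 12 were above and 3 below (median 0.43, all genes 0.40). Those with the smallest unadjusted p were Ehbp1l1, an effector of Rab8 proteins, at -1.01 (SE 0.54), and Acap2, which binds Rab35 and acts on Arf6, at 0.96 (SE 0.53). With normexp they were at -0.43 and 0.076. Limma with Benjamini-Hochberg adjustment called 0 genes of either list, as of all genes tested.

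Of 7 Rab-like genes outside the rule 1 was tested. Cracr2a, whose long form is a large GTPase with a Rab domain, was at -2.16, -3.33 and -2.61 in untreated samples and at -6.20, -3.27 and -5.30 with C5a. Its groups overlapped through C5a 2, its probe was above background on 3 untreated and 1 C5a arrays, and its difference was -2.22 (SE 0.74, limma unadjusted p = 0.019, adjusted p = 0.999), or -0.61 with normexp. The 39 SNARE genes, which fuse the vesicles that Rabs deliver, had 17 tested members, 13 with a positive and 4 with a negative difference (median 0.29), where 54.9% of all genes tested had a positive one. With normexp only 1 of the 17 was above 0 (median -0.08), where the median of all genes tested was -0.12. Snap23, a plasma membrane SNARE, differed by 0.86 (SE 0.47), and Stx3 by 0.54 (SE 0.41), which were 0.64 and -0.070 with normexp. The 28 Arf family GTPase genes had 14 tested members, 7 on each side of 0 (median 0.12), and 4 above and 10 below with normexp. Arl8a, an Arf-like GTPase of lysosome movement, was at -2.69, -2.06 and -2.13 in untreated samples and at -1.63, -1.72 and -1.60 with C5a, so that all C5a values were higher. Its difference, 0.02 with normexp, was 0.64 (SE 0.28, limma unadjusted p = 0.0543, adjusted p = 0.999). Arf1, of Golgi coat recruitment, differed by 0.45 (SE 0.32), or by 0.21 with normexp. No gene of the SNARE, Arf or Rab-like lists passed limma with Benjamini-Hochberg adjustment, as none of all 4488 genes did.

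**Figure D5:**
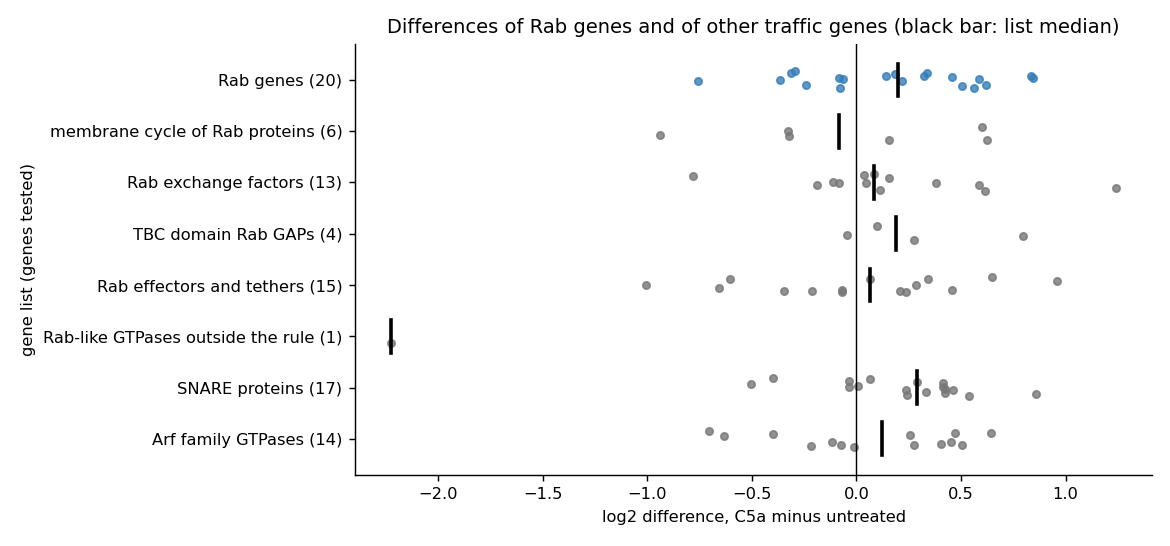
Log2 difference, C5a minus untreated, of each tested gene (points) of the Rab family and of 7 lists of other traffic genes, with the list median as a black bar. Points of all lists lie on both sides of 0 except the single Rab-like gene, and the Rab median is 0.20 (-0.15 with normexp). The median of all genes tested is 0.04 (-0.12 with normexp).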

How the data were processed

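RNA of 3 untreated and 3 C5a samples was measured on 6 Agilent 1-colour arrays. Per the file headers, the deposited intensity of each spot was read with Feature Extraction 10.10.1.1, as a background-subtracted processed signal with no scaling between arrays, with the median spot and background intensity beside it. The deposited flags, other values of 0 or 1, mark spots well above background, saturated (0 spots) or outlying. The deposited series table holds log2 values of unstated processing. Of its differences between arrays, 98.9% lay within 0.01 of those between the arrays' log2 processed signals once the 75th percentile of all probes was taken off. Its baseline per probe is unknown, its column medians were 0.17, -0.08, 0.18, 0.01, -0.02 and 0.22 (untreated 1 to 3, C5a 1 to 3), and it served as an alternative.

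Control spots and outlier spots were left out and spots averaged per probe. A probe counted as well above background where at least 0.5 of its spots were. Probes were named through RefSeq accessions (table of GRCm38.p6, 32989 of 56605 probes). Each array's 75th percentile over the 2371 probes above background on all arrays was subtracted, since only 4958 were on at least 3. Those 4958 were kept, with the brightest probe per gene. A probe with no gene name counted as a gene of its own. limma 3.58.1 (R 4.3.3) was fitted to the resulting 4488 genes, 3275 of them named, threshold 0.05 on the Benjamini-Hochberg adjusted p. Only this fit was tested on simulated data, with the same spread for all genes, and the steps before it were not. Deviations from group means correlated at 0.211, 0.269 and 0.384 between samples of equal number and at most 0.071 otherwise, which is where the pairing comes from. The number of arrays limits the precision. Tested Rab genes are all named, with values per sample, and each pathway list by its members with the smallest p. The members and lists were chosen with earlier results of these data known. Alternatives covered background correction (normexp with an offset of 50), scaling, filter, probe choice, outlier spots, weights, block, slide row and left-out samples.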

Additional observations from a re-analysis of the deposited data

How the results depend on the processing

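No Rab gene and no gene of the traffic lists was called under any of the 18 alternatives tried, by limma with Benjamini-Hochberg adjustment, and the smallest adjusted p of a Rab gene was 0.927, with the replicate block. Without the filter, with the percentile over all probes and in the deposited table, the tested Rab genes had 1 shared SE (0.77, 0.84 and 0.84). Each exceeds every Rab SE of the main fit, so those settings do not test genes by their own spread. The block changed no call. Over all genes, limma called 0 except without the filter on dim probes, where it called 47, none of them a Rab. Requiring a probe above background on all 6 arrays left 7 Rab genes. With the percentile over all probes and in the deposited table the median difference of all genes was 0.36 above that of the scaling used, and with normexp it fell by 0.16. Quantile normalization moved it by 0.07. As fitted, 8 of 20 Rab differences had the other sign with normexp, Rab5a and Rab11a among them. The values of this section under these 4 settings are taken less the shift. So taken, 29 of 347 single values had the other sign, in 14 genes, and none of Rab2a, Rab5a, Rab5b, Rab11a, Rab32 and Rab35 did. In several settings the sign could not turn, since the difference is that of the main fit by construction. These are no filter, the replicate block, probes above background on all arrays and, less the shift, the percentile over all probes. The deposited table gave nearly the same values, so the count of turned signs is low in part by construction. As fitted, 6 of 20 Rab differences turned with the percentile over all probes and 7 in the deposited table, where Rab1a was at 8.9e-18. Rab35 was among them in both (0.049 and 0.053).

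Less the shift, normexp turned the sign for Rab6a (-0.010), Rab10 (-0.0043), Rab11b (-0.070) and Rab7 (0.016). With array weights it turned for Rab1a (0.0014), Rab18 (-0.10), Rab43 (0.17) and Rab9 (-0.16), and with the slide row for Rab1a (0.28), Rab1b (0.18), Rab5c (0.15), Rab8b (-0.41) and Rab7 (0.021). Quantile normalization turned Rab1b (0.053 less the shift, 0.12 as fitted), and the mean of the kept probes turned Rab14 (0.014). Leaving out 1 sample gave -0.69 to 0.19 for Rab1a, -0.27 to 0.061 for Rab1b, -0.20 to 0.45 for Rab18, -0.31 to 0.14 for Rab43 and -1.22 to 0.017 for Rab5c. It gave -0.38 to 0.0085 for Rab22a, -0.26 to 0.55 for Rab8b, -0.23 to 0.75 for Rab11b, -0.22 to 1.18 for Rab12 and -0.035 to 0.48 for Rab9. The cause was not tested. Signal over background limits the family to 20 of 57 genes.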
